A study of Rattus norvegicus with 9 samples.

Results

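Integrins are cell surface receptors, each built of an α and a β subunit, that bind extracellular matrix or other cells outside the cell and connect to actin inside it. Here the integrin subunit genes and the core genes of the focal adhesion, the structure that forms on the inner side of a bound integrin, were described in rat knee tissue. The genes were the rows whose symbol starts with Itga or Itgb together with 12 named adaptor genes, kept where the level was above 0 TPM in 3 or more of the 9 libraries. TPM is a level scaled to transcript length, and it sums to 1000000 in each library. All 42 genes that matched were kept, out of 17602 genes in the table and 16512 that passed the same filter. They comprised 18 α subunits, 8 β subunits, 12 adaptors and 4 genes that share the symbol pattern but code for no subunit (Itgb1bp1, Itgb1bp2, Itgb3bp and Itgbl1).

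RNA came from wild-type male Lewis rats aged 10 to 12 weeks, in groups of 3 libraries labelled as biological replicates. The intact group was synovium, the lining tissue of the joint, from around the medial meniscus of knees with no surgery. The sham group was the same synovium in knees whose joint capsule had been opened and closed 1 week earlier. The pMx group was tissue regenerating 1 week after a partial medial meniscectomy (pMx), the removal of the anterior part of the medial meniscus, with the adjoining synovium dissected away. Meniscectomy was done on both knees of an animal, and the labels do not say whether the libraries of a group came from separate rats or pools, so p-values measure the spread between these libraries. The pMx and sham groups thus differed in the operation and in the tissue sampled, and these cannot be told apart. Fewer cells of a type and less RNA per cell cannot be told apart either in RNA from whole tissue.

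Read depth is unknown here, since TPM does not retain the number of reads. All 8 synovial fibroblast markers looked at (Prg4, Thy1 and Pdpn among them) had a mean above 1 TPM in each group. Of the 8 fibrocartilage markers, 6 did so in each group, though not always the same ones. Col2a1, the main collagen of hyaline cartilage, was at 0.56 to 0.89 TPM in pMx tissue. In intact replicate 1 it was at 16.14 TPM, against 0.29 and 0.24 TPM in intact replicates 2 and 3. Chad was at 142.5 TPM in that library, against 2.07 and 9.52 TPM. The same library had the highest fibrocartilage marker sum of the intact group, 1017 TPM. Intact replicate 3 stood apart through skeletal muscle genes. The 12 markers of that tissue summed to 43161 TPM in it, against 77.8 to 2897 TPM in the other 8 libraries. This sum also varied within the operated groups. In replicates 1, 2 and 3 it was 1324, 2897 and 251 TPM in sham synovium and 2483, 2864 and 93.8 TPM in pMx tissue. The study lists RNA integrity numbers that were lowest in intact synovium and highest in pMx tissue, with no overlap between groups, and the part of RNA quality in the differences below was not tested.

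As background, the α subunit largely sets the ligand. The α1, α2, α10 and α11 chains bind collagens with β1. The α5, α8, αv and αIIb chains bind ligands with an RGD (arginine-glycine-aspartate) motif such as fibronectin and vitronectin, and α3, α6 and α7 bind laminins of basement membranes. The chains coded by Itgal, Itgam, Itgax and Itgad pair with β2 on leukocytes, and the chain of Itgae pairs with β7. Inside the cell, talins and kindlins bind the β tail, and ILK, parvin and PINCH form a complex with kindlin that leads to actin. In synovium and meniscus these receptors hold fibroblasts, vessels, nerves and immune cells to their surrounding matrix.

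Levels were compared as log2(TPM + 1) with limma over all genes, and "rose" and "fell" are used for genes with a Benjamini-Hochberg adjusted p below 0.05. A differentially expressed gene (DEG) also had an absolute log2 fold change above 1, the threshold of the study. The first comparison asked how regenerating tissue differed from synovium that had been operated on without loss of meniscus. In pMx versus sham, 12 of the 42 genes rose and 10 fell, against 17.7% and 18.9% of all genes tested. The increases were led by the collagen receptor gene Itga11, the leukocyte gene Itgax and the fibronectin receptor gene Itga5, which were the 3 genes that rose as DEGs (3.36% of all genes did so). The decreases were led by the kindlin gene Fermt1, Itgbl1, Itgb8 and Itga8, which were the 4 that fell as DEGs (4.85% of all genes). The median log2 fold change was 0.09 over the 42 genes and -0.01 over all genes tested.

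The second comparison asked how the synovium differed 1 week after opening the capsule from unoperated synovium. In sham versus intact, 7 of the 42 genes rose and 5 fell, against 6.73% and 5.97% of all genes tested. The DEGs were Itga11 and Itgax, which rose, and Itga8, which fell (1.42% and 0.533% of all genes were DEGs in these directions). The median log2 fold change was -0.02 both over the 42 genes and over all genes tested. The 7 increases were less stable than those of pMx versus sham. Their number was 1 without sham replicate 1 and also without sham replicate 2, 2 without intact replicate 2, 3 without any one of the pMx libraries and 4 without intact replicate 3 or sham replicate 3. The 5 decreases became 9 without intact replicate 3 and 2 without sham replicate 2. The DEGs of this comparison numbered 1, in place of 3, without intact replicate 2, intact replicate 3 or sham replicate 2. Both comparisons use the sham libraries, so their values are set side by side below without a correlation.

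**Figure D1:**
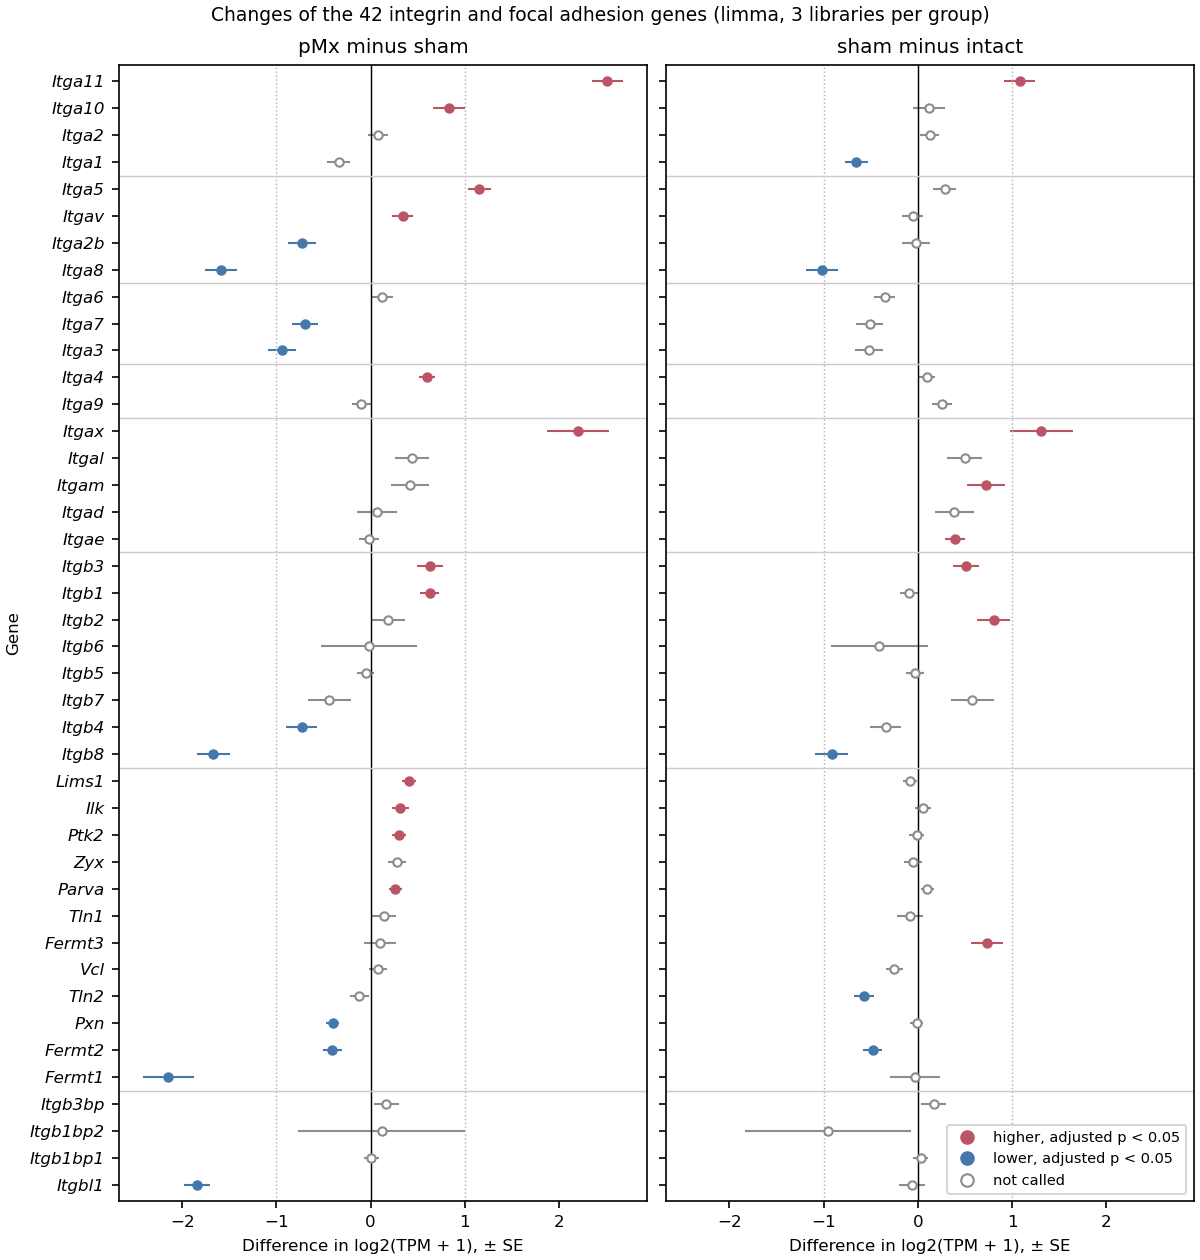
Differences of the 42 genes, in log2(TPM + 1) with the standard error from limma, for pMx minus sham (left) and sham minus intact (right). Filled red points rose and filled blue points fell at an adjusted p below 0.05, open grey points were not called, and dotted lines mark a log2 difference of 1 in either direction. Itga11 is furthest to the right on the left panel (2.51), and Fermt1 is furthest to the left (-2.15).

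Itga11 codes for α11, a receptor for fibrillar collagen made by fibroblasts, and had the largest increase of the 42 genes in pMx versus sham. It was at 12.31, 11.68 and 8.04 TPM without surgery, 26.05, 25.44 and 19.25 TPM after sham surgery and 144.17, 141.87 and 128.62 TPM in pMx tissue. No 2 groups overlapped, and the lowest pMx library was far above the highest sham library. On the log2 scale it rose by 2.51 in pMx versus sham (SE 0.16, limma adjusted p = 2.99e-05) and 1.08 in sham versus intact (SE 0.16, limma adjusted p = 0.00699). In mean TPM the pMx group was 5.86 times the sham group. The 8 synovial fibroblast markers also had a higher sum there, 13928 to 14863 TPM against 9219 to 10205 TPM in sham synovium and 7403 to 9774 TPM in intact synovium. Lum made most of this difference (1788.51 to 2558.27 TPM in sham synovium, 6842.22 to 7152.91 TPM in pMx tissue), whereas Dcn was lower in pMx tissue (2187.01 to 2640.09 TPM against 4171.96 to 4955.9 TPM) and Pdgfra overlapped. The 8 fibrocartilage markers summed to 1833 to 1969 TPM against 809 to 863 and 478 to 1017 TPM, with Chad alone lower in every pMx than in every sham library, and the part of either in the change of Itga11 was not tested.

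The other collagen-binding chains were lower or changed less. Itga10, known from chondrocytes, was low, 1.87 to 3.31 TPM in the 6 synovium libraries and 5.58, 4.89 and 5.96 TPM in pMx tissue. It rose in pMx versus sham (log2 fold change 0.83, SE 0.17, limma adjusted p = 0.00549), and its intact and sham values overlapped. Itga1, found on smooth muscle and other stromal cells and binding collagen IV among others, went the other way. It was at 42.2, 47.73 and 33.55 TPM without surgery, 25.66, 26.37 and 24.63 TPM after sham surgery and 18.33, 20.01 and 21.84 TPM in pMx tissue. The groups of Itga1 did not overlap and stepped down from intact to sham to pMx. It fell in sham versus intact (log2 fold change -0.65, limma adjusted p = 0.0143), a call lost without sham replicate 1 or 2 (adjusted p 0.0511 to 0.0532). In pMx versus sham its log2 fold change was -0.34 (limma adjusted p = 0.0604), and the adjusted p fell below 0.05 without intact replicate 2 or 3 (0.00875 to 0.0346) and under the settings given in the closing section. Itga2 was at 1.75 to 2.77 TPM over all libraries, with overlapping groups. In the pMx group, then, Itga11 exceeded Itga1 in every library, whereas in intact synovium Itga1 exceeded Itga11 in every library.

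The RGD-binding chains split into 2 that rose and 2 that fell in pMx versus sham, against 17.7% and 18.9% of all genes tested. Itga5 codes for α5, which with β1 forms the classical fibronectin receptor. It was at 54.73, 58.89 and 47.16 TPM without surgery, 68.09, 74.35 and 55.07 TPM after sham surgery and 135.49, 149.78 and 154.72 TPM in pMx tissue. All pMx values lay above all others, while intact and sham overlapped. For pMx versus sham its log2 fold change was 1.15 (SE 0.12, limma adjusted p = 2.00e-04) and 0.29 for sham versus intact (adjusted p = 0.161). Itgav, whose chain pairs with several β subunits and binds vitronectin and latent TGF-β, was at 45.49, 39.34 and 40.6 TPM after sham surgery and 51.49, 56.48 and 51.29 TPM in pMx tissue. It rose by a small amount (log2 fold change 0.34, limma adjusted p = 0.0390). This call was lost in 6 of the 9 fits made with 1 library left out at a time (leave-one-out fits), namely intact replicate 1, sham replicates 2 and 3 and each pMx library (adjusted p 0.0503 to 0.123).

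Itga8 codes for α8, a chain of smooth muscle and other mesenchymal cells that binds nephronectin. It was at 29.99, 39.01 and 23.62 TPM without surgery, 16.04, 12.36 and 15.24 TPM after sham surgery and 4.31, 4.25 and 3.85 TPM in pMx tissue. The groups were separate and stepped down at each stage. Its log2 fold change was -1.02 in sham versus intact (SE 0.17, limma adjusted p = 0.0107) and -1.59 in pMx versus sham (SE 0.17, limma adjusted p = 2.22e-04). The summed level of the 6 smooth muscle markers, none at 0, also stepped down. It was 5169 to 7857 TPM in intact synovium, 3648 to 4225 TPM in sham synovium and 2144 to 2357 TPM in pMx tissue. Acta2, Tagln, Myh11 and Cnn1 were lower in every pMx than in every sham library, whereas Rgs5 (595.72 to 645.11 TPM in sham synovium, 575.44 to 710.24 TPM in pMx tissue) and Des overlapped between these groups, and the part of smooth muscle in the change of Itga8 was not tested. Npnt, the gene of nephronectin, also fell in both comparisons (log2 fold changes -0.47 in sham versus intact and -1.62 in pMx versus sham). Itga2b, whose product pairs with β3 on platelets, was low, at 3.78, 2.35 and 2.63 TPM after sham surgery and 1.4, 1.17 and 1.44 TPM in pMx tissue. It fell in pMx versus sham (log2 fold change -0.73, limma adjusted p = 0.00551). Of the 6 platelet markers, Pf4 alone had a mean above 1 TPM in the sham and pMx groups, and Ppbp and Gp9 were at 0 in all pMx libraries.

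Of the 3 laminin-binding chains, 2 fell in pMx versus sham, against 18.9% of all genes tested. Itga3 was at 12.99, 17.3 and 11.92 TPM without surgery, 8.68, 9.04 and 10.57 TPM after sham surgery and 4, 4.22 and 5.1 TPM in pMx tissue. Itga7, best known from muscle, was at 37.86, 44.08 and 29.07 TPM without surgery, 26.32, 26.17 and 23.61 TPM after sham surgery and 13.58, 16.02 and 16.23 TPM in pMx tissue. For both genes the 3 groups were separate and ordered intact, sham, pMx from high to low. The log2 fold changes of pMx versus sham were -0.94 for Itga3 (SE 0.15, limma adjusted p = 0.00152) and -0.70 for Itga7 (SE 0.14, limma adjusted p = 0.00537). In sham versus intact they were -0.52 and -0.51, just short of the threshold (adjusted p = 0.0559 and 0.0510 from limma), and without the muscle-rich intact replicate 3 both fell (adjusted p = 0.0287 and 0.00680). The 8 endothelial markers, all above 1 TPM in each group, summed to 875 to 1151, 758 to 802 and 585 to 744 TPM from intact to sham to pMx. They did not move alike, since Emcn went from 137.09 to 166 TPM in sham synovium to 70.58 to 93.94 TPM in pMx tissue, while Kdr (18.41 to 23.16 and 25.45 to 32.62 TPM) and Cdh5 (97.69 to 123.5 and 131.09 to 156.09 TPM) were higher in every pMx library. The part of vessels in the changes of Itga3 and Itga7 was not tested. Itga6, whose chain pairs with β1 or β4, was at 36.37 to 49.43 TPM in intact synovium, 32.65 to 35.69 TPM in sham synovium and 35.65 to 40.42 TPM in pMx tissue. It was not called in either comparison (log2 fold changes -0.35 in sham versus intact, adjusted p = 0.0767, and 0.12 in pMx versus sham, adjusted p = 0.438), but without intact replicate 3 it fell in sham versus intact (adjusted p = 0.00614).

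The remaining stromal or shared chains are α4, which binds VCAM-1 and fibronectin, and α9, which binds tenascin-C among others. Itga4 was at 5.68, 5.77 and 5.29 TPM without surgery, 5.95, 6.36 and 5.83 TPM after sham surgery and 9.6, 10.37 and 9 TPM in pMx tissue. It rose in pMx versus sham (log2 fold change 0.60, SE 0.09, limma adjusted p = 0.00102). Vcam1, the gene of its cell surface ligand, fell in the same comparison by 1.70 on the log2 scale. Itga9 stayed at 12.59 to 19.08 TPM over all libraries and was called in neither comparison (log2 fold change -0.10 in pMx versus sham, adjusted p = 0.504).

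Among the leukocyte chains, Itgax stood out. It codes for CD11c, carried by dendritic cells and some macrophages. It was at 1.85, 2.66 and 1.84 TPM without surgery, 6.67, 12.2 and 3.48 TPM after sham surgery and 33.05, 36.82 and 32.98 TPM in pMx tissue. The 3 groups did not overlap, and the sham libraries were spread widely. For pMx versus sham its log2 fold change was 2.20 (SE 0.33, limma adjusted p = 0.00116) and 1.31 for sham versus intact (SE 0.33, limma adjusted p = 0.0369). The call of pMx versus sham held in all 9 leave-one-out fits. That of sham versus intact was lost in all of them but the fit without sham replicate 3 (adjusted p 0.0597 to 0.101).

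Itgam and Itgal, which code for the α chains of Mac-1 and LFA-1, changed much less. Itgam was at 10.19 to 19.33 TPM in intact synovium, 20.18 to 26.79 TPM in sham synovium and 31.54 to 35.3 TPM in pMx tissue, and Itgal at 12.51 to 21.46, 19.22 to 26.85 and 30.42 to 34.38 TPM. For both, the pMx libraries were above all sham libraries, but the adjusted p of pMx versus sham was 0.140 and 0.0989 from limma. Without intact replicate 3 both rose in pMx versus sham (adjusted p = 0.0365 for each), and Itgal did so also without intact replicate 1 (adjusted p = 0.0458). Itgam rose in sham versus intact (log2 fold change 0.73, limma adjusted p = 0.0497), but not in 8 of the 9 leave-one-out fits (adjusted p 0.0551 to 0.154; the exception was intact replicate 1). Itgal was not called there (adjusted p = 0.117), except without intact replicate 1 (adjusted p = 0.0354). Itgae rose in sham versus intact from 2.23 to 2.68 TPM to 3.28 to 3.86 TPM (log2 fold change 0.40, limma adjusted p = 0.0434). This call was likewise lost in 8 of the 9 leave-one-out fits (adjusted p 0.0504 to 0.122, the exception being intact replicate 3). It was also lost with a pseudocount of 0.1 or 0.01 (limma adjusted p = 0.0543 and 0.0556). The same held with quantile normalization and on the 6 libraries of the comparison (limma adjusted p = 0.0615 and 0.0854). Itgad was at or below 1.17 TPM in every library.

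Marker lists of the leukocytes that carry these chains gave the following sums. The 9 macrophage markers, all above 1 TPM in each group, summed to 1135 to 1790 TPM in intact synovium, 1914 to 2028 TPM in sham synovium and 1354 to 1804 TPM in pMx tissue. This sum was higher in sham than in intact, as Itgam and Itgb2 were. Csf1r, Adgre1, Cd68 and Aif1 were higher in every sham than in every intact library. C1qa, C1qb, Cd14, Mrc1 and Cd163 overlapped between these groups. In pMx tissue the macrophage sum was lower in every library than in every sham library. C1qa, C1qb, Aif1 and Cd163 were each lower in this way, Cd163 at 26.27 to 27.78 TPM in sham synovium and 3.75 to 6.38 TPM in pMx tissue. Csf1r, Adgre1, Mrc1 and Cd14 overlapped between sham and pMx. Only Cd68 was higher in every pMx library, at 189.68 to 227.77 TPM against 137.7 to 166.5 TPM in sham synovium. The 5 dendritic cell markers, none at 0, summed to 14.92 to 17.3 TPM in sham synovium and 9.71 to 12.24 TPM in pMx tissue. The 5 neutrophil markers summed to 39.7 to 50.6 TPM in sham synovium and 8.17 to 24.4 TPM in pMx tissue. S100a9 and Mpo were lower in every pMx than in every sham library, while S100a8 overlapped. Csf3r overlapped too, at 1.68 to 2.97 TPM in sham synovium and 2.76 to 3.89 TPM in pMx tissue. Elane was at 0 in pMx tissue and at or below 0.19 TPM in sham synovium. The 7 T cell markers summed to 235.4 to 252.6 TPM in sham synovium and 165 to 208 TPM in pMx tissue. Most of this was Cd4, at 214.4 to 229.57 TPM in sham synovium and 143.71 to 185.45 TPM in pMx tissue. Cd3d, Cd3e and Cd3g were at or below 6.03 TPM in every library, so the sum mainly tracked Cd4. Cd3d, Cd3g and Lck were also lower in every pMx than in every sham library, while Cd2 and Cd3e overlapped. Cd8a went the other way, from 2.31 to 3.87 TPM in sham synovium to 5.52 to 8 TPM in pMx tissue. The part of these leukocytes in the changes of Itgax, Itgam and Itgb2 was not tested. In the osteoclast list, of which 5 of the 6 markers were in the table, the sum was 278 to 391, 612 to 663 and 805 to 896 TPM from intact to sham to pMx, nearly all of it from Ctsk and Acp5, while Calcr was at or below 0.13 TPM in every library.

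**Figure D2:**
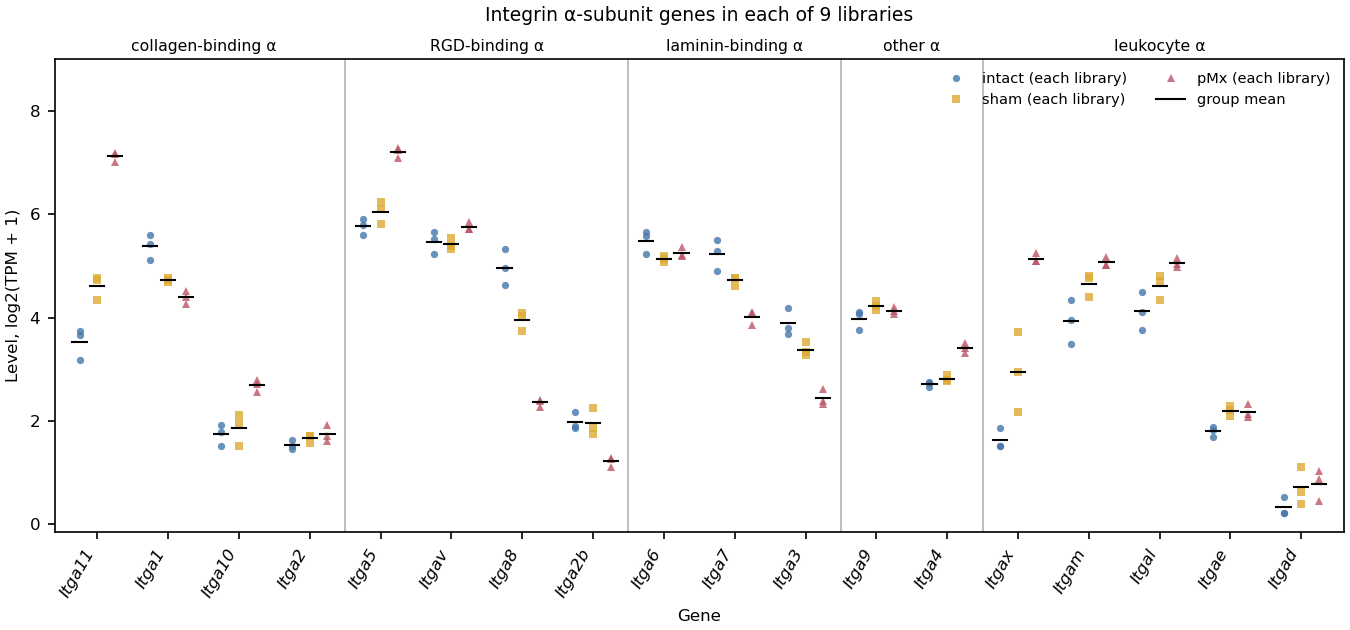
Level of each α-subunit gene, as log2(TPM + 1), in the 3 intact, 3 sham and 3 pMx libraries, with 1 point per library and a black bar for the group mean. Genes are grouped by main ligand class, and Itga11, Itgax and Itga8 show the widest separation of the groups.

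Because TPM is scaled to transcript length, the make-up of the α transcripts can be given as shares of their sum. The 18 α genes summed to 278 to 383 TPM in intact synovium, 301 to 348 TPM in sham synovium and 543 to 574 TPM in pMx tissue. Collagen-binding chains held 16.5% ± 0.200 of that sum in intact synovium, 16.3% ± 0.274 in sham synovium and 29.8% ± 1.45 in pMx tissue (SD, n = 3 each). Laminin-binding chains held 28.0% ± 0.767, 20.9% ± 1.21 and 10.2% ± 0.734 in the same order (SD, n = 3 each). RGD-binding chains held a similar share throughout, 38.7% ± 1.30, 37.7% ± 0.810 and 36.7% ± 1.20 (SD, n = 3 each), although Itga5 and Itga8 changed in opposite directions within them. Leukocyte chains held 10.7% ± 1.80, 17.9% ± 2.15 and 18.6% ± 0.770 (SD, n = 3 each). Itga11 alone went from 3.13% ± 0.292 of the α sum in intact synovium to 7.07% ± 0.590 in sham synovium and 24.8% ± 1.75 in pMx tissue (SD, n = 3 each). Itga5 had the highest mean of the α genes in every group. In the pMx group Itga5 and Itga11 came first and second, and Itga5 exceeded Itga11 in pMx replicates 2 and 3 but not in replicate 1, so their order there is within the spread. These shares are a description, with no test.

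**Figure D3:**
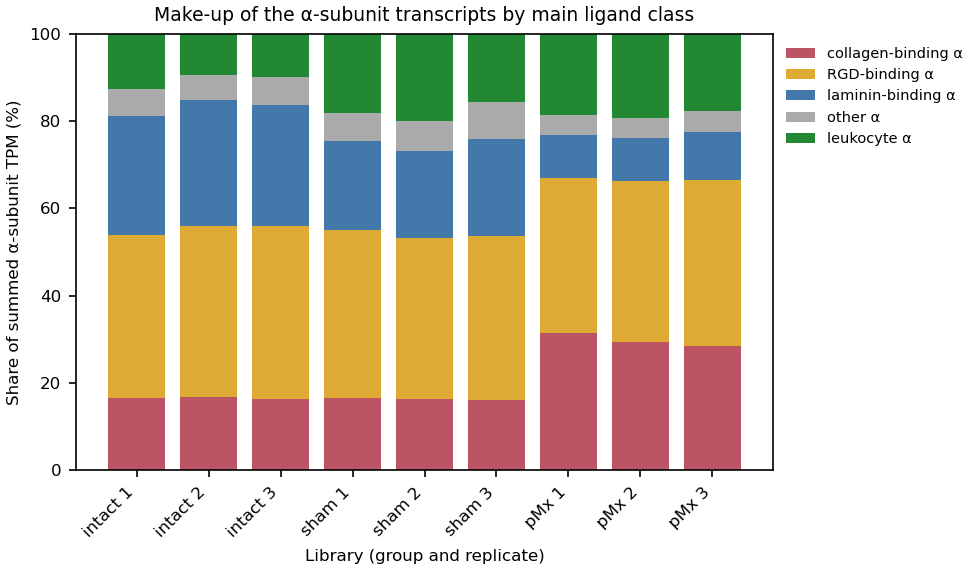
Share of the summed α-subunit TPM held by each ligand class, in percent, with 1 stacked bar per library. The collagen-binding part is larger and the laminin-binding part smaller in each of the 3 pMx bars than in any sham or intact bar.

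The stretches of sequence before the start of 4 of these genes, taken from RefSeq on the rat assembly GRCr8, are shown because these genes changed most among the α chains or, for Itga5, had the highest level. They are 250 bases each, 5′ to 3′ on the strand of the gene. Capitals mark matches, on either strand, to the letters of common transcription factor motifs. These were GAGGAA (PU.1-type), TGANTCA (AP-1), CATTCC (TEAD), GGGCGG (GC box) and CAGAC (SMAD), and no matches overlap in the sequences shown. Itga11 lies on the plus strand at chr8:72041182-72041431, Itgax on the plus strand at chr1:192149799-192150048, Itga5 on the minus strand at chr7:136381306-136381555 and Itga8 on the minus strand at chr17:80410634-80410883.
Itga11: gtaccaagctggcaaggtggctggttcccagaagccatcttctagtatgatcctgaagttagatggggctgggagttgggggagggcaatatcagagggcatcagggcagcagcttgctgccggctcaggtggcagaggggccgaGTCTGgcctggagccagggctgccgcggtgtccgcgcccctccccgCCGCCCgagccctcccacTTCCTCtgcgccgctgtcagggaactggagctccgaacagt
Itgax: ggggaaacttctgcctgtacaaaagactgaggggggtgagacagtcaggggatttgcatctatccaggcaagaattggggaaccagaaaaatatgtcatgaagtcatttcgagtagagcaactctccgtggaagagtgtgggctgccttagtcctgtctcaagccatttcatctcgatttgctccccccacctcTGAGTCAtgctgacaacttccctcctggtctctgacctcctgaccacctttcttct
Itga5: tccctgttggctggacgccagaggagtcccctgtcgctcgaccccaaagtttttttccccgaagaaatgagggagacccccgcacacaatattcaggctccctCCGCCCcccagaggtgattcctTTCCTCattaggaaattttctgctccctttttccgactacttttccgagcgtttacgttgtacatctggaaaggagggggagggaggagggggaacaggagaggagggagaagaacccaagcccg
Itga8: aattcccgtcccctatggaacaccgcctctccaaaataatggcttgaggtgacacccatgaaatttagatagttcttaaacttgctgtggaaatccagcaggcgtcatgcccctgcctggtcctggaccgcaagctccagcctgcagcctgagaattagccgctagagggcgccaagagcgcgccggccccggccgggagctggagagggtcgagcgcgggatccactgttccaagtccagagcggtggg
The Itga11 and Itga5 stretches each hold a GC box and a PU.1-type match, that of Itga11 a SMAD match too, that of Itgax an AP-1 match, and that of Itga8 none of these letters. Stretches were found for 32 of the 42 genes. The GC box letters were in 16 of the 32 and in 32.4% of 27457 stretches of the same length over all genes. The AP-1 letters were in Itgax alone of the 32 and in 6.36% of all stretches, and the TEAD letters in 7 of the 32 and 11.8% of all. The PU.1-type letters were in 9 of the 32 and 23.2% of all, and the SMAD letters in 17 of the 32 and 42.8% of all. A match is only a match of letters.

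Of the 8 β subunits, 2 rose and 2 fell in pMx versus sham, against 17.7% and 18.9% of all genes tested. These counts are not read as a result about the β subunits. Itgb1, the common partner of the collagen-, laminin- and fibronectin-binding chains, had the highest level of the 42 genes in every group. It was at 384.85, 465.55 and 349.5 TPM without surgery, 389.96, 380.83 and 348.3 TPM after sham surgery and 564.84, 586.98 and 577.7 TPM in pMx tissue. All pMx libraries lay above all others, and intact and sham overlapped. For pMx versus sham its log2 fold change was 0.63 (SE 0.10, limma adjusted p = 0.00165) and -0.09 for sham versus intact (adjusted p = 0.607). Itgb1 held 56.3% ± 1.16 of the summed β TPM in sham synovium and 68.2% ± 0.467 in pMx tissue (SD, n = 3 each).

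Itgb3, whose chain binds vitronectin and osteopontin with αv and is known from platelets and osteoclasts, was at 7.83, 9.9 and 6.66 TPM without surgery, 11.76, 13.37 and 10.58 TPM after sham surgery and 18.19, 18.03 and 20.47 TPM in pMx tissue. The groups stepped up without overlap. It rose in pMx versus sham (log2 fold change 0.63, SE 0.14, limma adjusted p = 0.00826). It also rose in sham versus intact (log2 fold change 0.51, limma adjusted p = 0.0487), a call lost in 8 of the 9 leave-one-out fits (adjusted p 0.0612 to 0.160; the exception was intact replicate 2) and under the replicate block (adjusted p = 0.0632). Itgb5, the other vitronectin partner of αv, was at 135.27 to 174.26 TPM over all libraries with overlapping groups (log2 fold changes -0.05 and -0.03). Itgb2, the leukocyte β chain, rose in sham versus intact from 23.59 to 40.9 TPM to 46.86 to 58.24 TPM (log2 fold change 0.81, limma adjusted p = 0.0231), a call lost without intact replicate 2, sham replicate 1 or sham replicate 2 (adjusted p 0.0715 to 0.0877). In pMx versus sham its log2 fold change was 0.19 (adjusted p = 0.451), against 2.20 for its partner Itgax.

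Itgb8 codes for β8, which with αv binds latent TGF-β and is known from nerve glia, fibroblasts and dendritic cells. It was at 17.84, 20.21 and 17.22 TPM without surgery, 10.58, 7.25 and 10.38 TPM after sham surgery and 2.37, 2.77 and 1.66 TPM in pMx tissue. The groups were separate and stepped down at each stage. The log2 fold changes were -0.91 in sham versus intact (SE 0.17, limma adjusted p = 0.0145) and -1.67 in pMx versus sham (SE 0.17, limma adjusted p = 1.84e-04). Itgb4 codes for a chain that pairs with α6 in hemidesmosomes and on Schwann and perineurial cells. It was at 69.29, 72.78 and 56.53 TPM without surgery, 50.53, 53.85 and 50.84 TPM after sham surgery and 24.91, 28.85 and 40.36 TPM in pMx tissue. It fell in pMx versus sham (log2 fold change -0.73, SE 0.16, limma adjusted p = 0.00848), and pMx replicate 3 was the nearest to the sham range. Intact and sham did not overlap, but it was not called there (log2 fold change -0.34, limma adjusted p = 0.210). In pMx versus sham, the summed level of the 7 Schwann cell markers was lower as well. They summed to 565 to 867 TPM in intact synovium, 639 to 779 TPM in sham synovium and 292 to 308 TPM in pMx tissue. The part of Schwann cells was not tested.

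Itgb7 and Itgb6 were low. Itgb7, a leukocyte chain, was at 6.7, 6.78 and 7.24 TPM after sham surgery and 4.47, 5.51 and 4.58 TPM in pMx tissue. It was not called (log2 fold change -0.44, adjusted p = 0.173), but its adjusted p was 0.0175 without intact replicate 3. The 6 mast cell markers summed to 244 to 364 TPM in sham synovium and to 11.9 to 15.9 TPM in pMx tissue, and their part was not tested. Itgb6, an epithelial chain, was at or below 0.68 TPM in all libraries except the muscle-rich intact replicate 3, at 3.6 TPM.

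**Figure D4:**
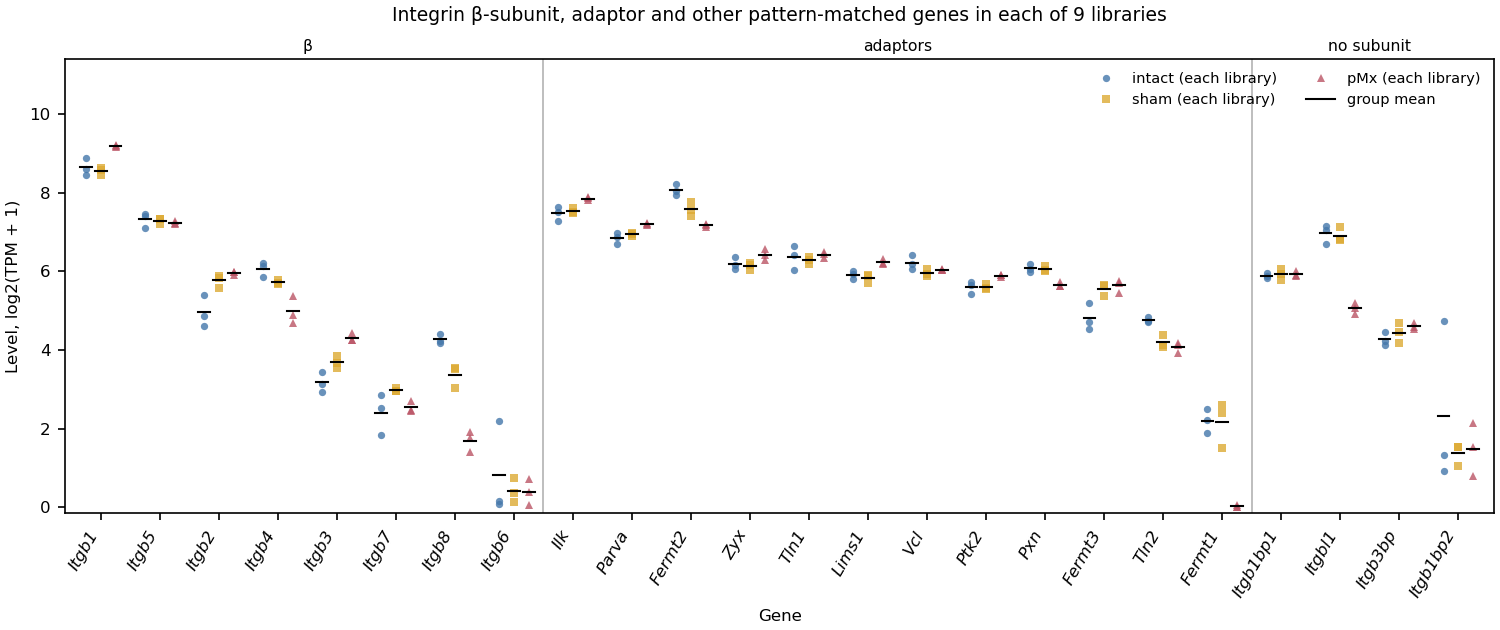
Level of each β-subunit gene, each adaptor gene and each gene that shares the symbol pattern without coding for a subunit, as log2(TPM + 1), in the 3 libraries of each group, with a black bar for the group mean. Fermt1 lies at 0 in 2 of the 3 pMx libraries, Itgb8 steps down from intact to pMx, and Itgb6 and Itgb1bp2 are highest in intact replicate 3.

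Among the 12 adaptors, 4 rose and 3 fell in pMx versus sham, against 17.7% and 18.9% of all genes tested. Apart from Fermt1 the changes were small. Ilk, Lims1 and Parva, which code for members of the ILK, PINCH and parvin complex, rose. Not all genes of this complex did so. Lims2, the second PINCH gene, fell (log2 fold change -2.12), and the parvin genes Parvb (0.01) and Parvg (0.24) were not called. Ilk was at 193.74, 180.52 and 177.43 TPM after sham surgery and 230.45, 234.89 and 221.5 TPM in pMx tissue (log2 fold change 0.32, limma adjusted p = 0.0215). Lims1, which codes for PINCH1, was at 58.25, 58.41 and 51.23 TPM after sham surgery and 73.57, 72.01 and 78.04 TPM in pMx tissue (log2 fold change 0.41, limma adjusted p = 0.00304). Parva, which codes for α-parvin, was at 118, 121.73 and 124.92 TPM after sham surgery and 148.81, 145.31 and 143.16 TPM in pMx tissue (log2 fold change 0.26, limma adjusted p = 0.0189). In each case the pMx libraries lay above the sham libraries without overlap. The kinase gene Ptk2, which codes for FAK, rose from 45.39 to 49.75 TPM to 57.1 to 59.1 TPM (log2 fold change 0.30, limma adjusted p = 0.0169). The call of Lims1 held in all 9 leave-one-out fits. Those of Ilk and Ptk2 were lost in 4 (sham replicates 2 and 3 with pMx replicates 1 and 2 for Ilk, adjusted p 0.0626 to 0.0751, and sham replicates 2 and 3 with pMx replicates 2 and 3 for Ptk2, adjusted p 0.0530 to 0.0572), and that of Parva in 3 (sham replicate 1 and pMx replicates 1 and 2, adjusted p 0.0542 to 0.0663). None of these 4 genes was called in sham versus intact, where their log2 fold changes were between -0.08 and 0.10.

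Of the 3 kindlins, which activate integrins by binding the β tail, 2 fell in pMx versus sham, against 18.9% of all genes tested. Fermt1, the kindlin of epithelia, was at 3.67, 4.62 and 2.71 TPM without surgery, 4.3, 1.85 and 5.03 TPM after sham surgery and 0, 0.05 and 0 TPM in pMx tissue. It had the largest decrease of the 42 genes on the log2(TPM + 1) scale (log2 fold change -2.15, SE 0.27, limma adjusted p = 4.56e-04), and since pMx was at or near 0 the size depends on the pseudocount (-4.95 with 0.1). Of the 6 epithelial markers, 5 were in the table and they summed to no more than 6.32 TPM in any library. Most of that was Krt8, at 2.25 to 5.19 TPM in the 6 synovium libraries and 1.33 to 2.73 TPM in pMx tissue, while Epcam was at or below 0.42 TPM and Krt14 at or below 0.09 TPM throughout. The part of epithelial cells in the change of Fermt1 was not tested. Fermt2, the kindlin of mesenchymal cells, was at 260.24, 294.1 and 242.48 TPM without surgery, 215.52, 169.35 and 187.53 TPM after sham surgery and 146.97, 144.64 and 137.63 TPM in pMx tissue. It fell in both comparisons (log2 fold changes -0.48 in sham versus intact, adjusted p = 0.0203, and -0.41 in pMx versus sham, limma adjusted p = 0.0127), the first call being lost without intact replicate 2, sham replicate 2 or sham replicate 3 (adjusted p 0.0539 to 0.0726). Fermt2 had the highest mean of the adaptors in the intact and sham groups, and Ilk in pMx tissue, though in sham synovium Ilk at 177.43 to 193.74 TPM lay within the range of Fermt2. Fermt3, the kindlin of blood cells, rose in sham versus intact from 21.96 to 35.51 TPM to 40.16 to 48.93 TPM (log2 fold change 0.73, limma adjusted p = 0.0285). The macrophage sum was higher there too, though not each of its markers, and the part of macrophages was not tested. The call of Fermt3 was lost without intact replicate 2, sham replicate 1 or sham replicate 2 (adjusted p 0.0850 to 0.102), and its pMx and sham values overlapped.

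Of the remaining adaptors, Pxn, which codes for the scaffold paxillin, fell in pMx versus sham, from 63.71, 64.25 and 69.67 TPM to 48.23, 52.01 and 48.58 TPM (log2 fold change -0.40, SE 0.07, limma adjusted p = 0.00247). Tln2, a talin of muscle and brain, fell in sham versus intact from 25.15 to 27.52 TPM to 15.73 to 19.82 TPM (log2 fold change -0.57, limma adjusted p = 0.0129), with the call lost only without sham replicate 2 (adjusted p = 0.0545). Tln1, the talin of most cells, and Vcl, the actin linker vinculin, were called in neither comparison. Their levels were 64.55 to 98.21 and 58.17 to 84.21 TPM over all libraries, and Vcl (log2 fold change -0.25 in sham versus intact, adjusted p = 0.109) was called there without intact replicate 3 (adjusted p = 0.0283) and in no other leave-one-out fit. Zyx, which codes for the tension-sensitive protein zyxin, was higher in every pMx library (77.66 to 92.96 TPM) than in every sham library (64.66 to 73.58 TPM). Its adjusted p was 0.0506 from limma, and it was 0.0291 to 0.0437 without intact replicate 2, intact replicate 3 or pMx replicate 3.

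Of the 4 genes that share the symbol pattern only, Itgbl1, which codes for a secreted protein with repeats like those of β subunits, was at 141.85, 132.18 and 102.65 TPM without surgery, 109.27, 111.95 and 137.43 TPM after sham surgery and 32.71, 35.81 and 29.02 TPM in pMx tissue. Intact and sham overlapped, and all pMx libraries lay far below. It fell in pMx versus sham (log2 fold change -1.84, SE 0.14, limma adjusted p = 4.92e-05). Itgb1bp1, which codes for a protein that binds the β1 tail, was at 53.71 to 65.23 TPM and Itgb3bp, a centromere protein gene, at 16.34 to 24.86 TPM over all libraries, and neither was called. Itgb1bp2 codes for melusin, a protein of striated muscle, and was at 25.53 TPM in the muscle-rich intact replicate 3 and at 0.73 to 3.4 TPM in the other libraries.

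A further list of 69 genes of the focal adhesion was examined around these members. In pMx versus sham, 16 of them rose and 15 fell, against 17.7% and 18.9% of all genes tested, and the median log2 fold change was 0.03. These counts are not read as a result about the list. Enah, an actin elongation factor, had the largest increase (log2 fold change 1.26, limma adjusted p = 3.72e-05), followed by the kinase gene Pak1 (1.20), the LIM protein gene Fhl3 (1.08) and the adaptor gene Nedd9 (0.89). Among the largest decreases were those of Lims2 (-2.12, limma adjusted p = 6.11e-05), Kank1 (-1.21) and the tensin gene Tns1 (-1.20). Lims2 codes for PINCH2, the second PINCH protein, which fell from a mean of 38.2 TPM in sham synovium to 8.10 TPM in pMx tissue, while Lims1 rose. The 7 adipocyte markers were also lower, at 4492 to 4837 TPM in sham synovium and 342 to 525 TPM in pMx tissue, and their part was not tested. The number of genes called in this list, 31, was 20 without sham replicate 3 and also without pMx replicate 3. In sham versus intact 4 of the 69 rose and 5 fell, shares near the 6.73% and 5.97% of all genes tested. Among these were Pak1 (0.91), the leukocyte gene Lpxn (0.81), Apbb1ip (0.75) and Cib1 (0.28) upward and Kank1 (-0.70), Kank3 (-0.52) and the actinin gene Actn4 (-0.45) downward. The 9 genes called there were 24 without intact replicate 3, 5 without pMx replicate 1, 4 without intact replicate 2, 2 without sham replicate 1 and 1 without sham replicate 2.

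The ligands of these receptors were examined as a list of 52 genes, of which 50 were tested. In pMx versus sham 21 of the 50 rose and 10 fell, against 17.7% and 18.9% of all genes tested, so that the decreases were near the share over all genes. The median log2 fold change was 0.31. The largest increases were those of the tenascin genes Tnn (log2 fold change 3.33) and Tnc (2.96), the fibrillin gene Fbn2 (2.64) and the thrombospondin gene Thbs2 (2.61). The largest decreases were those of Vcam1 (-1.70), Npnt (-1.62), the matricellular gene Ccn2 (-1.34) and the vitronectin gene Vtn (-1.09). The collagen genes Col1a1 and Col1a2, ligands of α11, rose by 1.81 and 1.77 on the log2 scale. Fn1, the gene of fibronectin and the main ligand of α5, had a log2 fold change of 0.42 and was not called (adjusted p = 0.146), beside the increase of 1.15 for Itga5. In sham versus intact 13 of the 50 rose and 9 fell, against 6.73% and 5.97% of all genes tested. Tnn (6.45), the osteopontin gene Spp1 (3.04), the periostin gene Postn (1.87) and Col1a1 (1.59) rose most, and Edil3 (-1.12), Ccn2 (-1.05), Tnr (-0.86) and Vtn (-0.85) fell most. The 22 genes called there were 11 without sham replicate 1 and 12 without sham replicate 2.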

How the data were processed

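The authors deposited TPM values per gene and library, rounded to 2 decimals. The submitters' processing notes name the rat build mRatBN7.2 and HISAT2 2.0.4, and the study's methods name Dr. Tom of BGI. The tool that counted reads and the annotation are not given in the sources used here. Second-strand synthesis with dUTP marks strand, but whether counting used it is not given. Libraries were grouped and numbered by their titles. The lists and members were chosen with earlier results of these data known.

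Deposited values were put on the log2(TPM + 1) scale for 16512 genes, those with 3 or more libraries above 0 TPM, and fitted in limma 3.58.1 under R 4.3.3 (1 mean per group over all 9 libraries, eBayes with a trend, Benjamini-Hochberg adjustment over all genes tested). The fit was tested on simulated data first. The added 1 makes fold changes of low genes too small. The study's methods give the DEG thresholds but no test. The genes named are the 42 members, the 4 largest called increases and decreases of the 2 further lists in each comparison, and marker genes, apart from some that are not reported here. Npnt in sham versus intact and Parvb, Parvg, Col1a1, Col1a2 and Fn1 in pMx versus sham were chosen after their values were seen. All 42 identifiers matched RefSeq (GRCr8), which was used for names and for the promoter sequences, and no column of per-sample values was left unmapped. Figures were drawn with Matplotlib 3.10.9. Alternatives were smaller pseudocounts (0.1 and 0.01), no filter or a mean of at least 1 TPM, scaling by median-of-ratios or quantiles, a fit on 6 libraries only, robust eBayes or eBayes with no trend, the replicate number as a block, an adjusted p below 0.01 and leaving out each library.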

Additional observations from a re-analysis of the deposited data

How the results depend on the processing

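No member reversed its direction where it was called, in the fit reported or in an alternative, over 1676 refitted values, of which 1547 stayed on the same side of the threshold. With 1 library left out at a time, the members that rose in pMx versus sham numbered 8 to 15 (12 reported), those that fell 10 to 12 (10 reported) and the DEGs 7 to 8 (7 reported). In sham versus intact these numbers were 1 to 5 (7 reported), 2 to 9 (5 reported) and 1 to 3 (3 reported). The called genes of the further focal adhesion list numbered 20 to 44 in pMx versus sham and 1 to 24 in sham versus intact, and those of the ligand list 28 to 33 and 11 to 22. The member DEGs of pMx versus sham numbered 10 with a pseudocount of 0.1 and also with 0.01. Itga10, Itga2b and Itga3 were then DEGs too (log2 fold changes 1.04, -1.05 and -1.07 with 0.1). An adjusted p below 0.01 left 20 further focal adhesion genes in pMx versus sham. In sham versus intact it left 1 member that rose, 0 that fell, 1 DEG, 1 further focal adhesion gene and 11 ligand genes. The fit on the 6 libraries of sham versus intact, with fewer degrees of freedom, gave 1 member that rose, 3 that fell, 2 further focal adhesion genes and 11 ligand genes. With no filter the calls of Itgam and Itgb3 in sham versus intact were lost (limma adjusted p = 0.0558 and 0.0537). That of Itgam was also lost with no trend (limma adjusted p = 0.0533). Median-of-ratios rescaling gave 8 members that fell there and 16 further focal adhesion genes, and the cause was not tested. It shifted the median of all genes by 0.02 on the log2 scale. The adjusted p of Itga1 in pMx versus sham was 0.0261 with that rescaling, 0.0347 with quantile normalization and 0.0105 on 6 libraries. On the 6 libraries of pMx versus sham, Zyx, Itgam and Itgal rose and Itgb7 fell as well (adjusted p 0.0117 to 0.0283 from limma). Zyx also rose there with either smaller pseudocount, with a mean of at least 1 TPM and with either rescaling (adjusted p 0.0277 to 0.0495 from limma).

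Replicates are numbered alike in all groups. Across genes, libraries with one number deviated from their group means with correlations of 0.03, 0.37 and 0.48 between pMx and sham and of 0.00, -0.40 and -0.49 between sham and intact. Deviations from a mean of 3 libraries sum to 0, so these correlations cannot decide whether the numbers mark pairs. The labels name no pairs, and none were used in the fit reported. With the replicate block, Itgal rose in pMx versus sham (adjusted p = 0.0436 from limma), and the calls of Itgb3 and Itgae in sham versus intact were lost (adjusted p = 0.0632 and 0.0815). No other call of a member changed with it.

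TPM keeps no depth, so low genes (Itgad, Itgb6, Itga2b) carry a counting error that cannot be given.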
